A study of Mus musculus with 18 samples.

Results

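Tsnax, Nmral1 and Serpinh1 are 3 genes on different chromosomes whose mRNA was nearly absent from HM cells, a P19 line with a cancer hotspot mutation in Dicer. They were chosen by their low values in HM, and Tsn was added as the protein partner of Tsnax. The 4 genes are 4 rows of a table of 55450 genes measured by poly(A) mRNA-seq, and all 4 passed the filter on low values in every comparison. The HM values of Tsnax, Nmral1 and Serpinh1 are therefore given as a description without a test, while Tsn, and all 4 genes in HetKO against WT, were tested.

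P19 is a mouse embryonic carcinoma line, and 3 lines were sequenced with 6 samples each. WT cells are Dicer (+/+). HetKO cells are Dicer (+/-), with 1 allele truncated by CRISPR, and HM cells are Dicer (HM/-), made by adding the E1797G change to the full-length allele that HetKO cells still have, so that HM shares the truncated allele with its control. Each genotype is a single line, and a difference that belongs to the line and a difference that belongs to the mutation cannot be told apart. No source says that the 6 samples of a line are separate cultures, and p-values measure only the spread between these samples.

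Values are TPM, a transcript abundance scale corrected for transcript length, which sum to about 1000000 in each sample, so sequencing depth is unknown. Pluripotency markers of P19 cells summed to 3140 to 3596 TPM in WT, 2970 to 3588 in HetKO and 3377 to 3881 in HM. None of the 10 markers was at 0 throughout a line, though 2 averaged under 1 TPM in HetKO. Pou5f1, at means of 2088, 2095 and 2040 TPM, made up most of each sum. In HM against WT, 2 of the 10 were called lower and 3 higher (adjusted p under 0.05 from limma), beside 32% and 19.4% of all genes. Nanog had means of 46.9 TPM in WT and 18.8 in HM, and Utf1 of 220 and 381. Fibroblast markers summed to at most 68.8 TPM, endoderm markers to at most 8.41 TPM and neural markers to at most 110 TPM in any sample. Samples of a line were not equally alike, and in HetKO and HM they fell into 3 pairs of very alike samples, replicates 1 and 4, 2 and 5, and 3 and 6 in HetKO and 1 and 4, 2 and 3, and 5 and 6 in HM. In WT, replicates 1 and 4 stood apart from the other 4 samples, whose closest matches were 2 with 5 and 3 with 6, less clearly separated. Pair means as replicates use these pairs. Dicer1, the edited gene, had a mean of 52.3 TPM in WT, 48.0 in HetKO and 40.3 in HM.

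Tsnax encodes TRAX, the catalytic subunit of the nuclease C3PO, and Tsn encodes translin, the RNA-binding subunit. C3PO removes the nicked passenger strand while Argonaute is loaded with a small RNA duplex, and it also acts on tRNA fragments and on some miRNA precursors. TRAX protein depends on translin and is lost in mice without it, and neither protein was measured here. Nmral1 encodes an NADPH-sensing protein of the NmrA-like family. Serpinh1 encodes Hsp47, a heat-shock-induced chaperone of the endoplasmic reticulum that folds procollagen.

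Dicer cuts miRNA precursors into duplexes of a 5p and a 3p strand, and RNase IIIb makes the cut that frees the 5p strand. A miRNA pairs with the 3′ UTR of its targets through its seed, bases 2 to 8. The sequences below show which seeds could pair with the 4 genes, taking 6 passenger 3p-miRNAs that the study's blots or reporter assays name, whose levels were not analysed here. They come from RefSeq, build GRCm38.p6, and are written from 5′ to 3′ with the seed in capitals. The miR-17-3p and miR-20b-3p sequences share a seed, which leaves 5 different seeds.
mmu-miR-7a-1-3p: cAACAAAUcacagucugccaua
mmu-miR-15b-3p: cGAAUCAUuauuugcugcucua
mmu-miR-17-3p: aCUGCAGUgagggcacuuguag
mmu-miR-20b-3p: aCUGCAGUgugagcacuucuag
mmu-miR-26a-2-3p: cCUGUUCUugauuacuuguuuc
mmu-miR-30a-3p: cUUUCAGUcggauguuugcagc

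These 5 seeds belong to only some of the passenger 3p-miRNAs that the study counts, and the others were not searched. Among 21000 genes with an annotated 3′ UTR, 44.3% held a match of 7 bases to at least 1 of these 5 seeds in the longest one. The longest 3′ UTR of Tsnax (1514 bases) held no match to any of the 5. Those of Nmral1 (1365 bases) and Serpinh1 (744 bases) each held 1 match, to miR-26a-2-3p, and none to the other 4 seeds. The study describes miR-26a-2-3p as an exception, found with Dicer and not with Argonaute in HM cells. Its reporter was not repressed there. Whether the matches in Nmral1 and Serpinh1 act in HM was not tested. The 3′ UTR of Tsn is far longer, at 6026 bases, and held 3 matches, 1 to miR-26a-2-3p and 2 to miR-30a-3p. The search used the transcript strand. ATTTGTT, which pairs with the miR-7a-1-3p seed, was held by 19.3% of the genes, and ATGATTC, for miR-15b-3p, by 7.61%. ACTGCAG, for miR-17-3p and miR-20b-3p, was held by 13.7%, AGAACAG, for miR-26a-2-3p, by 14.3%, and ACTGAAA, for miR-30a-3p, by 15.2%. The matches are shown in capitals, all on minus strands of GRCm38. They lie at chr16:4710272-4710294 for Nmral1, at chr7:99345468-99345490 for Serpinh1, and at chr1:118295264-118295286, chr1:118299733-118299755 and chr1:118299639-118299661 for Tsn sites 1, 2 and 3.
Nmral1 site for miR-26a-2-3p: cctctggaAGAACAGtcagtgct
Serpinh1 site for miR-26a-2-3p: tcaaaacgAGAACAGtttgtaca
Tsn site 1 for miR-26a-2-3p: caccacacAGAACAGtggaaggc
Tsn site 2 for miR-30a-3p: ggggtagaACTGAAAttattaaa
Tsn site 3 for miR-30a-3p: ttcaaaaaACTGAAAgaaaaaaa

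The same search was made for 6 5p-miRNAs, the strands that RNase IIIb frees, with 4 different seeds. A match was found in 38.3% of genes and in all 4 of the genes described here. Tsnax and Nmral1 each held 1 match, TGCTGCT, to the seed that miR-15b-5p and miR-16-5p share. Serpinh1 held 1 match, GTCTTCC, to miR-7a-5p, and Tsn held 3, to miR-15b-5p and miR-16-5p, to miR-17-5p and miR-20b-5p, and to miR-26a-5p. The matches to the first and second of these seeds in the 3 genes low in HM are printed with the miRNAs. Their positions are chr8:125029092-125029114 on the plus strand for Tsnax, and chr16:4710603-4710625 and chr7:99345722-99345744 on the minus strand for Nmral1 and Serpinh1. Matches of letters are a description and do not show that a site is used, and other miRNAs were not searched.
mmu-miR-15b-5p: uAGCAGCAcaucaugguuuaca
mmu-miR-16-5p: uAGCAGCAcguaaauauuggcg
Tsnax site: atccccagTGCTGCTtggggtac
Nmral1 site: tgctactgTGCTGCTtgaggcgg
mmu-miR-7a-5p: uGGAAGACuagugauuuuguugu
Serpinh1 site: cctcttcaGTCTTCCtgttcacc

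Tsnax (ENSMUSG00000056820.7) is a chromosome 8 gene (positions 125012997 to 125034192, plus strand in GRCm38). Its TPM in WT had a lowest value of 48.3, a median of 49.1 and a highest value of 50.7. In HetKO the corresponding values were 48.8, 52.9 and 57.3 TPM. In HM they were 0.07, 0.12 and 0.42 TPM, so every HM sample was far below every other sample. The WT mean was 49.3 ± 0.853 TPM (SD, n = 6) and the HM mean 0.167 ± 0.128 TPM (SD, n = 6), or 0.338% of WT. The difference on the log2(TPM + 1) scale was -5.44, a scale that understates the fall of a gene near 0. Tsnax was also the steadiest of the 4 genes in WT, where its 6 samples spanned less than 3 TPM. A processed pseudogene on the other strand within Tsnax was listed at 0 in every sample.

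Nmral1 (ENSMUSG00000063445.14) is a chromosome 16 gene (positions 4710059 to 4719356, minus strand). Its TPM ran from 38.1 to 57.4 in WT with a median of 54.3, and from 53.9 to 68.2 in HetKO with a median of 61.0. In HM it ran from 0.48 to 1.74 with a median of 0.90. No HM sample came near the other lines. The mean fell from 50.1 ± 8.44 TPM in WT (SD, n = 6) to 0.975 ± 0.476 TPM in HM (SD, n = 6), which is 1.95% of WT and a log2 difference of -4.71.

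Serpinh1 (ENSMUSG00000070436.12) is a chromosome 7 gene (positions 99345376 to 99353239, minus strand). Its TPM ran from 55.5 to 109 in WT with a median of 100, and from 81.0 to 109 in HetKO with a median of 96.1. In HM it ran from 1.85 to 8.26 with a median of 3.32. The HM samples were again all lowest, yet Serpinh1 kept more of its mRNA than the other lost genes. The means were 87.9 ± 23.7 TPM in WT (SD, n = 6) and 4.37 ± 2.83 TPM in HM (SD, n = 6), or 4.97% of WT, with a log2 difference of -4.16.

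**Figure D1:**
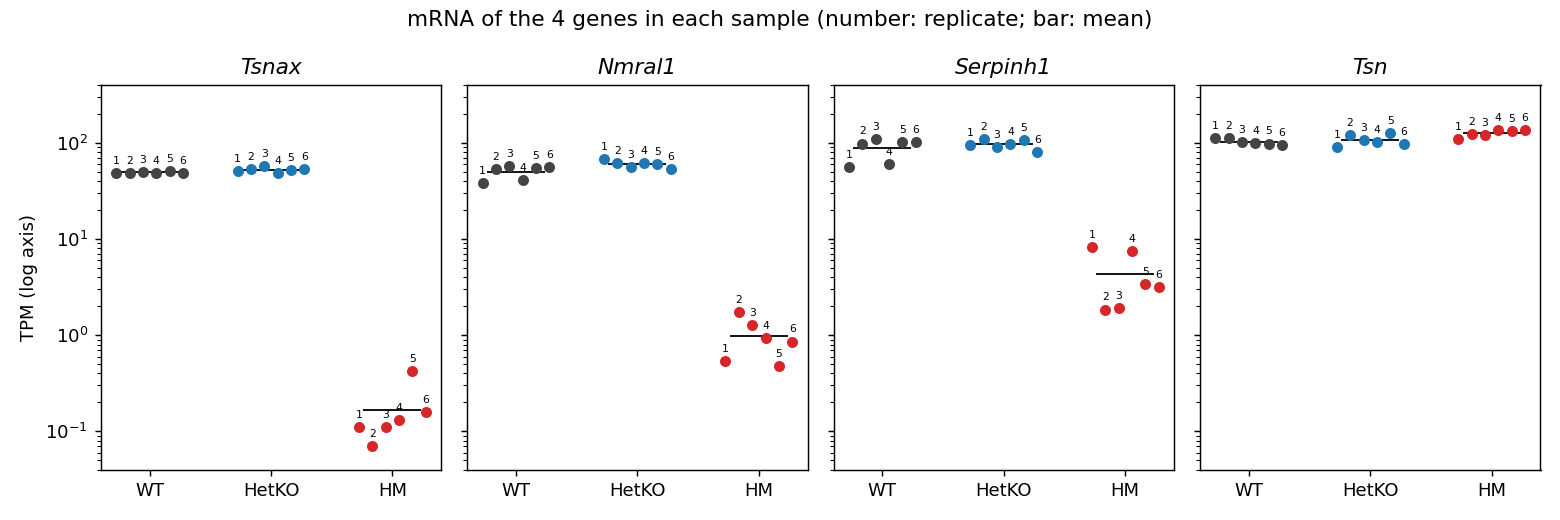
TPM of Tsnax, Nmral1, Serpinh1 and Tsn on a log axis in the 6 WT (grey), HetKO (blue) and HM (red) samples, with the replicate number above each point and a bar at the mean. Tsnax in HM sits between 0.07 and 0.42 TPM, Nmral1 between 0.48 and 1.74 and Serpinh1 between 1.85 and 8.26, all below the other lines, whereas Tsn in HM sits between 110 and 137 TPM.

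The low HM values of the 3 genes did not follow the same samples. Tsnax was highest in HM replicate 5, with 0.42 TPM. Nmral1 was highest in HM replicates 2 and 3, whose mean was 1.52 TPM against 0.74 in replicates 1 and 4 and 0.67 in replicates 5 and 6. Serpinh1 was highest in HM replicates 1 and 4, at a mean of 7.92 TPM, and lowest in replicates 2 and 3, at 1.88 TPM. Within WT, replicates 1 and 4 were lower than the other 4 samples for Serpinh1, at a mean of 57.6 TPM against 100 and 106, and for Nmral1, at 39.4 TPM against 54.3 and 56.6. Tsnax did not split this way in WT, with pair means of 48.7, 49.9 and 49.3 TPM. Whether samples that are alike share a culture or a library was not tested.

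Tsn (ENSMUSG00000026374.14) is a chromosome 1 gene (positions 118294778 to 118311739, minus strand), and it was the one gene of the 4 that was higher in HM. Its TPM ran from 95.6 to 112 in WT with a median of 101, and from 91.3 to 125 in HetKO with a median of 104. In HM it ran from 110 to 137 with a median of 129. The lines overlapped, since HM replicate 1 lay below the 2 highest WT samples. The mean rose from 103 ± 6.96 TPM in WT (SD, n = 6) to 127 ± 10.1 TPM in HM (SD, n = 6), or by 22.9%. The log2 fold change was 0.29 (standard error, SE, 0.06; adjusted p = 0.00195 from limma). In this comparison 51.4% of the 14043 genes tested were called, 32% lower and 19.4% higher, so a call by itself sets Tsn apart little. Tsn was also 0.25 higher in HM than in HetKO (SE 0.08, adjusted p = 0.0372 from limma), where 14% of genes were called higher, and this call was lost with pair means as replicates (adjusted p = 0.238 from limma). The mRNA of the C3PO partners thus differed in direction, with TRAX mRNA at 0.338% of WT and translin mRNA above WT.

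In HetKO against WT, none of the 4 genes passed the test, in a comparison where 10.2% of 13999 genes did, 6.44% lower and 3.71% higher. The log2 fold change was 0.10 for Tsnax (SE 0.05, adjusted p = 0.211 from limma) and 0.18 for Serpinh1 (SE 0.17, adjusted p = 0.512 from limma). It was 0.05 for Tsn (SE 0.08, adjusted p = 0.728 from limma) and -0.05 without HetKO replicates 2 and 5. Nmral1 was at 0.28 (SE 0.11, adjusted p = 0.119 from limma), and with samples centred on their median it passed at 0.33 (adjusted p = 0.0442 from limma). HetKO means were 52.8 ± 2.80 TPM for Tsnax, 60.3 ± 5.17 for Nmral1, 96.6 ± 10.6 for Serpinh1 and 107 ± 13.1 for Tsn (SD, n = 6 each). HetKO replicates 2 and 5 stand apart from the other HetKO samples, with Tsn at a mean of 122 TPM there against 96.8 and 102 TPM in the other pairs. In the line that carries the truncated allele alone, the 3 genes were thus present at levels that overlapped WT.

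The neighbouring genes show how far the low values reached along each chromosome. Within 500 kb of the 4 genes, 46 of 119 annotated genes were expressed enough to be tested in HM against WT. Of these, 13 were called lower (28.3%) and 10 higher (21.7%), shares close to those over all genes, and 23 were not called. In HetKO against WT, 1 of 46 was called lower and 1 higher. Apart from Mogat2 near Serpinh1, no tested neighbour of the 3 lost genes had a log2(TPM + 1) difference beyond -1.32 in HM. On the TPM scale the next lowest shares of WT were those of Vasn and Disc1, both low in every line, at 27.8% and 28% of the WT mean.

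Nmral1 sits between Dnaja3, which encodes a mitochondrial chaperone, and Hmox2, which encodes a heme oxygenase. Dnaja3 ends 2.4 kb away and had a mean of 38.2 TPM in WT and 37.9 in HM, a log2 fold change of -0.01 (SE 0.06, adjusted p = 0.88 from limma). Hmox2 begins 7.0 kb away on the other side and had 27.7 TPM in WT and 26.5 in HM, at -0.06 (SE 0.06, adjusted p = 0.432 from limma). Both nearest neighbours overlapped WT, and with samples centred on their median the sign of each turned, Dnaja3 to 0.17 (adjusted p = 0.0158 from limma) and Hmox2 to 0.12 (adjusted p = 0.0829 from limma). Vasn, encoding the membrane protein vasorin, lies 59.3 kb away and fell from 3.31 to 0.920 TPM, by 1.17 on the log2 scale (adjusted p = 3.72e-06 from limma). Vasn overlaps Dnaja3 on its own strand and Coro7 on the other, and the sources used here do not state whether reads were counted by strand. Of 20 tested genes at Nmral1, 7 were lower and 4 higher.

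Tsnax has Disc1, a scaffold protein gene, 20 kb beyond its end and Egln1, which encodes the oxygen-sensing prolyl hydroxylase PHD2, 63.7 kb before its start. Disc1 was low in all lines and fell from a mean of 1.89 TPM in WT to 0.528 in HM, at -0.94 (SE 0.15, adjusted p = 0.000301 from limma), without overlap of these 2 lines. In HetKO, replicates 2 and 5 had 0.28 and 0.8 TPM of Disc1, within the HM range of 0.15 to 1.07, and the others 1.43 to 2.11 TPM. Egln1 ran from 39.6 to 71.5 TPM in WT and from 54.5 to 79.2 in HetKO. In HM it split, with 62.7 and 52.6 TPM in replicates 2 and 3 and 11.4 to 14.6 TPM in the other 4 samples. Its log2 fold change was -1.32 (SE 0.42, adjusted p = 0.018 from limma), and with pair means as replicates it did not pass (adjusted p = 0.124 from limma). Replicates 2 and 3 thus had WT levels of Egln1 and no more Tsnax than the rest, at 0.07 and 0.11 TPM. Of 11 tested genes at Tsnax, 2 were lower and 3 higher.

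Serpinh1 lies 8.2 kb beyond Map6, which encodes a microtubule-stabilizing protein, and 28.2 kb before Gdpd5. Map6 fell from 11.6 TPM in WT to 7.76 in HM, at -0.55 (SE 0.13, adjusted p = 0.00398 from limma, and 0.0759 for pair means). In HetKO, Map6 was at 3.13 and 3.64 TPM in replicates 2 and 5, below every HM sample, and at 12.6 to 18.9 TPM in the others. Gdpd5 was at 1.08 TPM in WT and 0.953 in HM (adjusted p = 0.561 from limma). Mogat2, which encodes a monoacylglycerol acyltransferase of triglyceride synthesis, lies 106.8 kb away and had the largest fall among tested neighbours of the 3 lost genes, also as a share of WT. Its TPM ran from 38.5 to 91.7 in WT, from 63.2 to 82.5 in HetKO and from 4.89 to 10.8 in HM, with no overlap. The mean fell from 72.9 ± 25.4 TPM (SD, n = 6) to 7.76 ± 2.50 TPM (SD, n = 6), or 10.6% of WT, by 3.04 on the log2 scale (SE 0.26, adjusted p = 5.07e-06 from limma). Like Serpinh1, Mogat2 was lower in WT replicates 1 and 4, at a mean of 40.2 TPM against 91.2 and 87.3, but in HM it was highest in replicates 2 and 3, where Serpinh1 was lowest. Of 12 tested genes at Serpinh1, 4 were lower and 1 higher.

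Tsn has Nifk, which encodes a nucleolar partner of Ki-67, 10.1 kb beyond it. Nifk ran from 49.4 to 69.0 TPM in WT and from 95.3 to 167 TPM in HM, a rise of 1.14 on the log2 scale (SE 0.13, adjusted p = 3.06e-05 from limma). In HetKO it reached 126 TPM in replicates 2 and 5 and stayed at 54.0 to 69.1 TPM in the other 4 samples. No gene before Tsn within 500 kb was tested, and of the 3 beyond it 2 were higher.

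**Figure D2:**
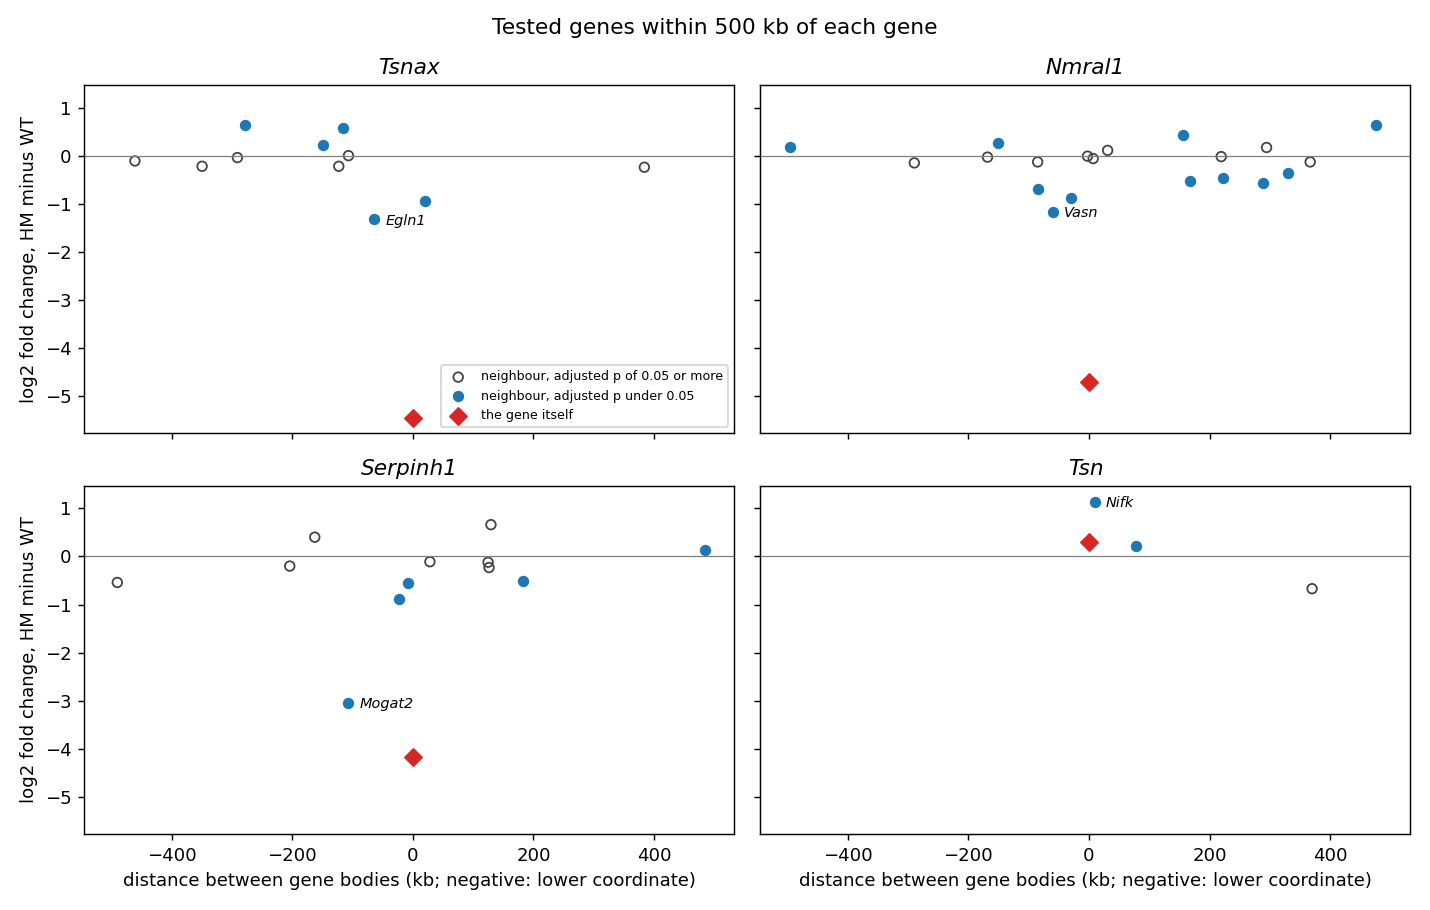
Log2 fold change on the log2(TPM + 1) scale, HM minus WT, of every tested gene within 500 kb of Tsnax, Nmral1, Serpinh1 and Tsn against its distance in kb, with filled points under an adjusted p of 0.05 and a red diamond for the gene itself. Mogat2 at -3.04 is the one neighbour near the depth of the lost genes at -4.16 to -5.44, and the genes 2.4 and 7.0 kb from Nmral1 lie at -0.01 and -0.06.

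**Figure D3:**
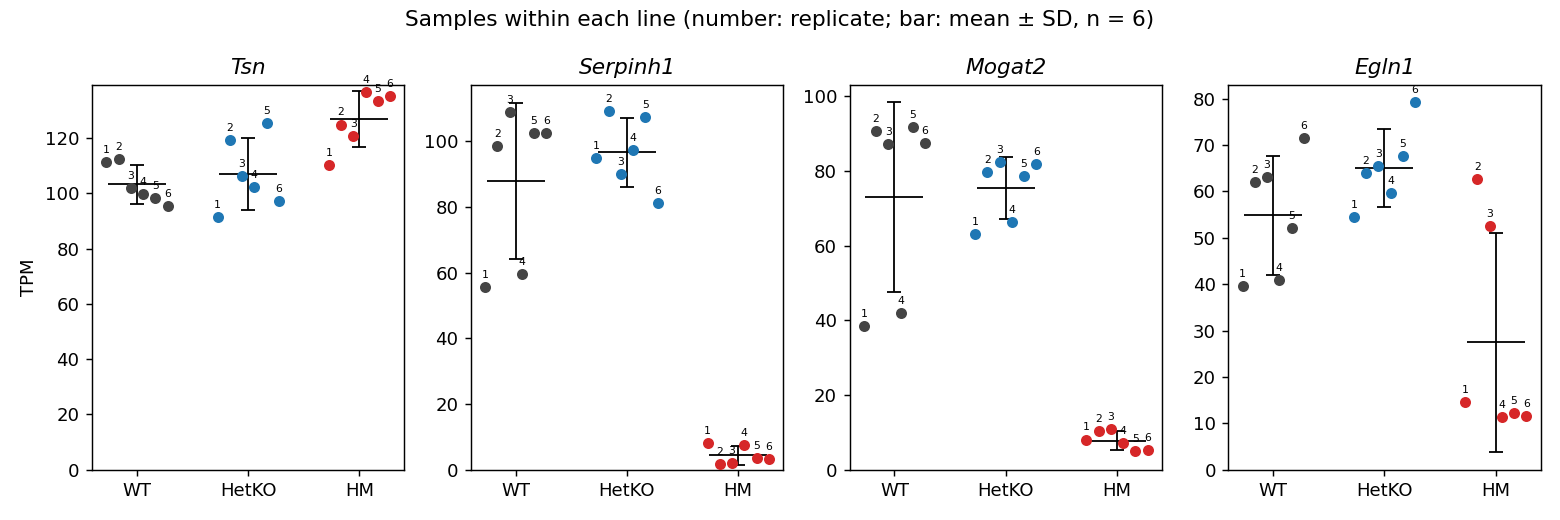
TPM of Tsn, Serpinh1, Mogat2 and Egln1 in each sample on linear axes, with replicate numbers and the mean ± SD (n = 6) of each line. WT replicates 1 and 4 lie below the other WT samples for Serpinh1 and Mogat2, and HM replicates 2 and 3 lie at 62.7 and 52.6 TPM for Egln1 while the other HM samples lie at 11.4 to 14.6 TPM.

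Loss of this depth was rare among genes of at least 10 TPM. Of 8256 genes that averaged at least 10 TPM in both WT and HetKO, 10 (0.121%) were at or below 10% of WT in HM. Tsnax, Nmral1 and Serpinh1 are among them because they were chosen for it. Of the others, 3 are on chromosome 12, Meg3, Rian and Mirg, at 0.000607%, 0.347% and 0.867% of WT. They are the noncoding RNAs of an imprinted cluster that holds many miRNAs. The study states that miRNAs of a chromosome 12 cluster were silent in HM, and calls this effect transcriptional and clonal. Whether the same holds for Tsnax, Nmral1 and Serpinh1 was not tested. Meg3 had a mean of 274 TPM in WT and 161 in HetKO, where replicates 2 and 5 were lowest, and in HM it was listed at 0 in 5 samples and at 0.01 in replicate 3. Galnt11 on chromosome 5, which encodes an enzyme that starts O-linked glycosylation, had 16.0 ± 2.56 TPM in WT, 19.7 ± 1.25 in HetKO and 0.0233 ± 0.0186 in HM (SD, n = 6 each), or 0.146% of WT. The last 3, Mir686, Mir8097 and the gene model Gm21769, are uncertain, since their SD in WT exceeded their mean. Serpinh1 at 4.97% was the gene just inside the limit, and Mogat2 at 10.6%, Ripply1 at 11.4% and Mpzl2 at 11.7% lay just outside it. Genes averaging under 10 TPM were not counted. Among those, Zkscan7 went from 5.8 TPM in WT to 0.01 in HM, and Wdr31 from 4.08 to 0.108.

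**Figure D4:**
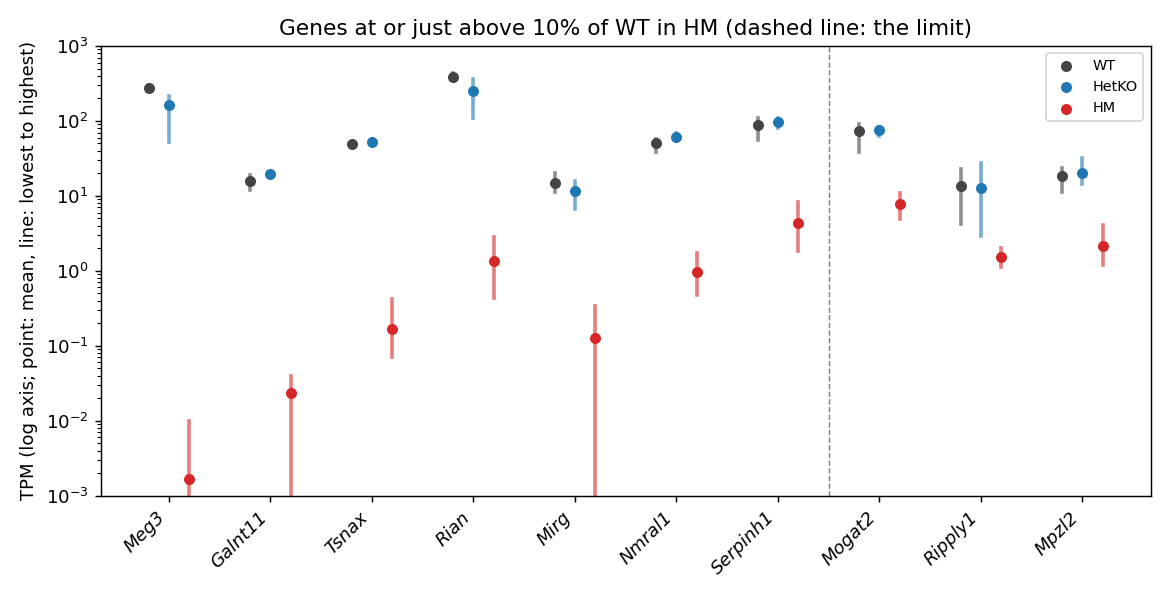
Mean TPM (points) and lowest to highest sample (lines) on a log axis for genes at or below 10% of WT in HM, left of the dashed line, and the 3 genes just above it, leaving out Mir686, Mir8097 and Gm21769. Only genes averaging at least 10 TPM in WT and HetKO were considered. Lines that reach the bottom of the axis include samples listed at 0. Tsnax at 0.338% of WT lies between Galnt11 at 0.146% and Rian at 0.347%, and Serpinh1 at 4.97% lies closest to the limit.

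The genes whose pattern over the 18 samples was most like each member were named by Pearson's r of log2(TPM + 1), over 13954 genes, leaving out the other members and gene models. These values are a description, since the 18 points fall into 3 lines and the difference between HM and the rest sets most of r. For Tsnax they were Galnt11 (r = 0.996), Ccnq (0.993) and Wdr31 (0.988), and for Nmral1 Galnt11 (0.997), Ccnq (0.991) and Mettl8 (0.986). Ccnq, which encodes cyclin Q, went from 29.9 TPM in WT and 28.4 in HetKO to 8.07 in HM. For Serpinh1 they were Xkr5 (0.978), Galnt11 (0.977) and Ilkap (0.973). Tsn was most like Ddx52 (0.942), Wtap (0.941) and Naif1 (0.936), of which Ddx52, an RNA helicase gene, went from 56.9 TPM in WT to 71.9 in HM. Between members r was 0.992 for Tsnax and Nmral1, 0.974 for Tsnax and Serpinh1 and 0.967 for Nmral1 and Serpinh1, and Tsn was at -0.703 to -0.719 with them.

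The genes that work with each member were read from lists chosen for their function. Counts of calls in each list depend on how samples are scaled, because HM against WT had 32% lower and 19.4% higher calls as deposited, and 20.5% lower and 32.1% higher with samples centred on their median. With pair means as replicates the shares over all genes were 15.4% lower and 8.25% higher. For HetKO against WT as deposited they were 6.44% lower and 3.71% higher. Over all genes the median in HM against WT was -0.09 as deposited and 0.08 after centring. Directions that turn with this choice are given for each list.

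For Tsnax and Tsn, the first list held small RNA nucleases and tailing enzymes, of which 17 of 21 symbols matched a gene and all 17 were tested. In HM against WT, 8 were lower, 2 higher and 7 not called, with a median of -0.24, and after centring 3 were lower and 5 higher, with a median of -0.06. With pair means 1 was lower and 2 higher. Tut1, a terminal uridylyltransferase gene, rose by 0.87 (SE 0.14, adjusted p = 0.000272 from limma), and Eri1, an exoribonuclease gene that trims histone mRNA and small RNA ends, rose by 0.52 (adjusted p = 0.000101 from limma). Dis3l2, which degrades uridylated precursor let-7, fell by 0.60 (adjusted p = 0.00734 from limma, and 0.0846 for pair means). In HetKO against WT none of the 17 was called.

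Among 16 tested genes of RISC loading and Dicer partners, 2 were lower and 7 higher in HM, with a median of 0.15, and after centring 2 were lower and 9 higher, and with pair means 2 and 4. Dgcr8, the partner of Drosha in cutting primary miRNAs, rose from 22.9 to 42.7 TPM, by 0.85 (SE 0.11, adjusted p = 4.63e-05 from limma). Prkra, which encodes the Dicer-binding protein PACT, fell from 37.4 to 20.6 TPM, by 0.83 (SE 0.11, adjusted p = 9.44e-05 from limma). Prkra starts at position 76629898 of chromosome 2, near Fkbp7 (from 76663044), a collagen folding gene at 47.8% of WT in HM. Clp1, from 84722104 on that chromosome, was at 142%. Whether the position of Prkra bears on its fall was not tested. Hspa8, a chaperone used in loading Argonaute, rose by 0.67 (adjusted p = 0.000866 from limma). Dicer1 was the second gene called lower, at -0.37 (adjusted p = 0.000251 from limma). HetKO against WT had 3 lower and none higher.

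RNase P and tRNA end processing, the pathway that makes the tRNA fragments C3PO acts on, had 12 of 22 genes higher and 4 lower in HM, with a median of 0.27. The direction was the same after centring, with 13 higher and 2 lower. Pop5, an RNase P protein gene, rose from 78.6 to 146 TPM, by 0.91 (SE 0.12, adjusted p = 8.99e-05 from limma). Elac2, which encodes the nuclease that trims tRNA 3′ ends, rose by 0.80 (adjusted p = 0.00124 from limma), and Rpp25l by 0.71 (adjusted p = 3.63e-05 from limma). With pair means as replicates 7 of 22 were higher and 1 lower, and HetKO against WT had 2 higher.

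For Serpinh1, 34 other genes of collagen folding and secretion were tested, of which 10 were lower, 4 higher and 20 not called in HM, with a median of -0.15. After centring 4 were lower and 11 higher, with a median of 0.03, and with pair means 4 were lower and 1 higher. The 3 largest falls kept their direction under each scaling. Loxl2, a lysyl oxidase that crosslinks collagen, went from 48.8 to 18.6 TPM, a fall of 1.47 (SE 0.29, adjusted p = 0.00112 from limma). Plod2, a collagen lysyl hydroxylase, went from 85.4 to 31.4 TPM, a fall of 1.46 (SE 0.22, adjusted p = 0.000189 from limma), and P4ha1, a prolyl hydroxylase subunit that prepares procollagen for Hsp47, fell by 0.97 (SE 0.19, adjusted p = 0.00108 from limma).

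The collagens that Hsp47 folds were measured as 12 genes, of which 2 were lower, none higher and 10 not called in HM. Those 2 were Col1a2, at -0.80 (adjusted p = 0.00346 from limma), and Col2a1, at -0.64 (adjusted p = 0.000406 from limma), named because they are few and chosen after their values were seen. The best expressed were Col18a1, at 50.6 TPM in WT and 43.8 in HM (adjusted p = 0.273 from limma), and Col4a1, at 19.3 and 17.7 TPM (adjusted p = 0.421 from limma). HetKO against WT called none of the 12, with a median of -0.29 beside -0.32 in HM against WT. In HM against HetKO none of the 12 was called, with a median of -0.03. Col2a1 was at -0.57 in HetKO against WT (adjusted p = 0.0831 from limma) and at -0.07 in HM against HetKO (adjusted p = 0.816 from limma). For Col1a2 these were -0.19 (adjusted p = 0.715 from limma) and -0.61 (adjusted p = 0.174 from limma).

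Serpinh1 is also a target of heat shock factor, and of 24 heat shock targets and chaperones 15 were higher and 6 lower in HM, with a median of 0.28. After centring 16 were higher and 3 lower, and with pair means 9 were higher and 1 lower. Hsph1, an Hsp110 chaperone gene, rose from 56.3 to 136 TPM, by 1.23 (SE 0.14, adjusted p = 2.76e-05 from limma). Hspb8, a small heat shock protein gene, fell by 1.14 (adjusted p = 0.000944 from limma), and Hspa1b, an inducible Hsp70 gene, was at -1.07 (adjusted p = 0.0277 from limma). The Hspa1b call was lost for pair means (0.159), after centring (0.0701) and after quantile normalization (0.0758), and its mean was 2.11 TPM in WT, 0.0783 in HetKO and 0.268 in HM, lower in HetKO than in WT at -1.27 (adjusted p = 0.0389 from limma).

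For Nmral1, 26 genes of NADPH supply and use were tested, of which 8 were lower and 6 higher in HM, with a median of -0.12. After centring 5 were lower and 8 higher, with a median of 0.06, so its direction turned with the scaling, and with pair means 3 were lower and 4 higher. Idh2, a mitochondrial NADPH-making dehydrogenase, fell from 81.6 to 43.6 TPM, by 0.90 (SE 0.10, adjusted p = 2.02e-05 from limma). Nqo1, a quinone reductase, was at 0.91 (adjusted p = 0.00345 from limma, and 0.0606 for pair means). Aldh1l1, which makes NADPH from formyl tetrahydrofolate, was at -0.92 (adjusted p = 0.0199 from limma, 0.125 for pair means and 0.0564 after centring). HetKO against WT had 1 lower and 2 higher.

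**Figure D5:**
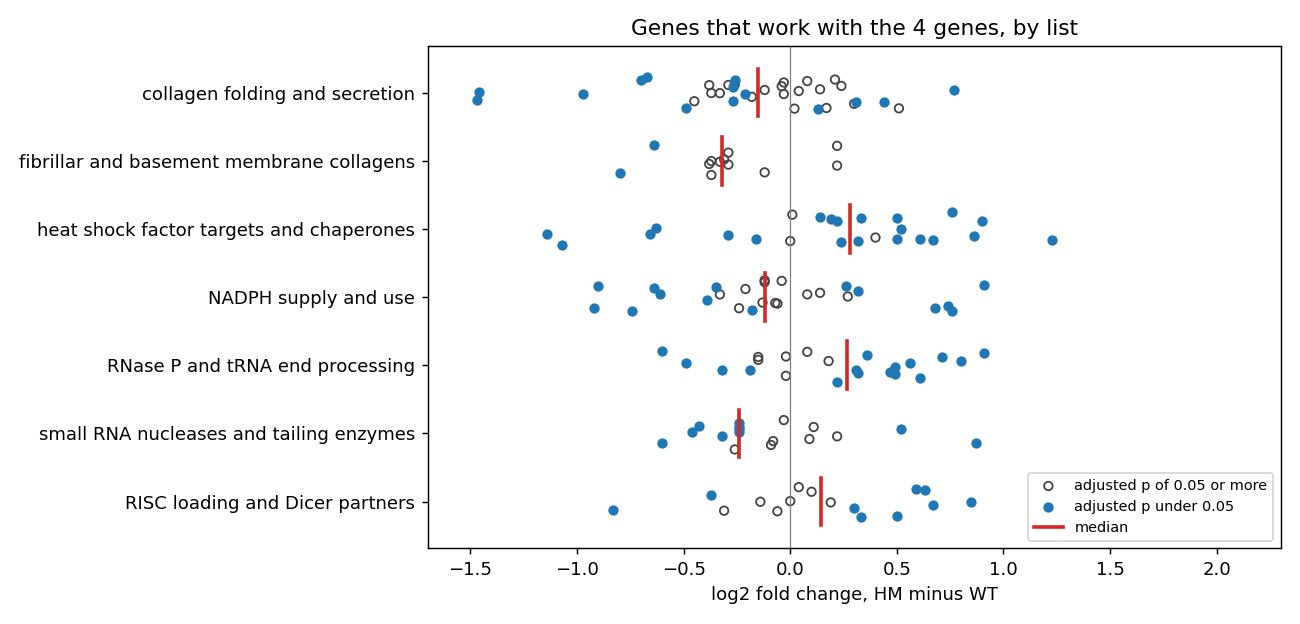
Log2 fold change on the log2(TPM + 1) scale, HM minus WT, of each tested gene in the 7 lists, with filled points under an adjusted p of 0.05 and a red bar at the list's median; height within a list has no meaning. The medians run from -0.32 for the collagens to 0.28 for the heat shock targets, beside -0.09 over all 14043 genes, and none of these genes reaches the -4.16 to -5.44 of the 3 lost genes.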

How the data were processed

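Poly(A) RNA of 3 P19 lines, 6 samples each, was sequenced as stranded paired-end libraries. The authors used BBMerge to join read pairs and RSEM for quantification, and the deposited TPM are rounded to 2 decimals; the submitters' processing notes also list cutadapt, STAR and mm10. No column was left unused. All 55450 gene identifiers matched GENCODE M21 (GRCm38), which gave positions and 3′ UTRs. TPM keeps no depth, so no interval or detection floor was set.

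limma 3.58.1 (trend, R 4.3.3) was run on log2(TPM + 1) of genes averaging at least 1 TPM in the 12 samples compared, with p-values adjusted by Benjamini-Hochberg, with a threshold of 0.05. The test was run on simulated data with independent samples, which lack the alike pairs seen here, so that check does not cover them. Tables were made in Python 3.11.15. Groups came from the sample labels.

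The members, lists and tests were chosen with earlier results of these data known. Named were the 4 genes, Dicer1, the nearest tested neighbours and those changed by at least 1 (log2), the 3 largest called changes per list (or the 2 best expressed genes), the 3 most alike genes per member, and genes at or just above 10% of WT in HM. Other assays of the study were not analysed here.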

Additional observations from a re-analysis of the deposited data

Results flagged for a closer look

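Tsnax in HM replicate 5 was at 0.42 TPM, where the next highest HM sample was at 0.16 and the lowest at 0.07 TPM. Its gap to the next sample was 0.743 of the range of the 6 HM samples, above Dixon's critical value for 6 samples. It was the 1 group of samples past that value among 15 examined, where chance gives about 0.75. At 0.42 TPM it was still below 1% of every WT sample.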

How the results depend on the processing

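Across 23 results and 127 alternative values, 95 kept their direction and side of the threshold or stayed within 1.5 times the count. Tsn in HM against WT kept its call under every alternative run, at 0.24 to 0.47 with adjusted p from 0.000282 to 0.0379 (limma, and the unequal-variance test per gene). Tsn in HM against HetKO stayed at 0.25 but lost its call without a filter on low values (adjusted p = 0.0612 from limma), with the unequal-variance test (adjusted p = 0.0587) and with the means of alike sample pairs (adjusted p = 0.238). Tsn in HetKO against WT turned from 0.05 to -0.05 without HetKO replicates 2 and 5, and Nmral1 passed at 0.33 with samples centred on their median; the cause was not tested. Neighbours called lower were 22 of 74 within 1 Mb, beside 13 of 46 within 500 kb. Neighbours called higher were 6 of 31 within 250 kb, beside 10 of 46 within 500 kb. These counts move with the distance because the number of genes tested changes. With pair means 3 of 46 neighbours were called higher, where 8.25% of all genes were. Genes nearly lost in HM were 22 at a limit of 20% and 5 at a minimum of 20 TPM.

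List counts in HM against WT were also made with pair means, with centred samples and with quantile normalization, chosen after seeing the data. With pair means, called lower were 4 collagen folding genes, 1 collagen, 1 heat shock gene, 3 NADPH genes, 1 RNase P gene and 1 small RNA nuclease, and called higher were 1 collagen folding gene, 9 heat shock genes, 7 RNase P genes and 4 RISC genes, where fewer samples entered. After centring, called lower were 4 collagen folding, 3 heat shock, 5 NADPH, 2 RNase P and 3 small RNA nuclease genes, and called higher were 11 collagen folding genes, 1 collagen and 5 small RNA nucleases. After quantile normalization, 7 collagen folding genes and 1 collagen were called higher, and 2 RNase P and 4 small RNA nuclease genes lower. Calls over all genes went from 32% lower and 19.4% higher to 15.4% and 8.25% with pair means, 20.5% and 32.1% after centring, and 24.8% and 25.9% after quantile normalization.

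Equal replicate numbers in different lines did not pair the samples, since the mean correlation of their deviations was 0.00512 for HM and WT, 0.0621 for HetKO and WT and 0.0206 for HM and HetKO. With the replicate block, Tsn stayed at 0.29 in HM against WT (adjusted p = 0.0152 from limma) and at 0.25 in HM against HetKO (adjusted p = 0.0361 from limma), 14 neighbours were lower and 9 higher, and no call of the 4 genes changed. Depth is unknown, and values near 0, such as Tsnax in HM, carry the rounding to 2 decimals.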
